A study of Homo sapiens with 44 samples.

Results

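The peaks assigned to ICAM1, ICAM4, ICAM5 and VCAM1 were followed across chromatin accessibility libraries of Ccd18-Co, a fibroblast line from human colon. Members were all peaks whose deposited name carried 1 of these 4 genes, whatever their level. They came to 95 of 407383 peaks, made of 18 for ICAM1, 14 for ICAM4, 16 for ICAM5 and 47 for VCAM1. All 95 passed the filter on low coverage and were among the 407174 peaks tested. The assay was ATAC-seq, in which a transposase inserts sequencing adaptors into accessible DNA. The 44 libraries formed 11 groups of 4. One group was left unstimulated. The others received 1 cytokine each in serum-free medium, namely IFNα, IFNγ, TNF, IL-6, oncostatin M (OSM), IL-13, TGF-β1, IL-17A or IL-22 at 10 ng/ml, or IL-1β at 0.1 ng/ml. The IL-1β dose is that of the labels, and the study's text gives it inconsistently. By the study's methods, cells were starved of serum beforehand and processed after a single exposure time. Other times were not measured. In the plots IFNα, IFNγ, TGF-β1 and IL-1β carry their symbols IFNA, IFNG, TGFB1 and IL1B. Every library came from the same cell line, so the 4 replicates of a group hold no donor variation and their spread may be technical.

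ICAM1 and VCAM1 are cell-surface proteins of the immunoglobulin superfamily that hold leukocytes through integrins. ICAM1 binds the β2 integrins LFA-1 and Mac-1, while VCAM1 binds VLA-4, an α4β1 integrin on lymphocytes, monocytes and eosinophils. Both are known as inducible genes, on endothelium and on stromal cells, whose promoters carry sites for the NF-κB family of transcription factors that TNF and IL-1β activate. ICAM4 is the Landsteiner-Wiener blood group protein of red cells, and ICAM5 (telencephalin) is an adhesion protein of forebrain neurons. The last pair lie directly downstream of ICAM1.

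In build hg38 all 4 genes read from the plus strand. GENCODE v44 placed the start sites at base 10271120 of chromosome 19 for ICAM1, 10286955 for ICAM4 and 10289952 for ICAM5, and at base 100719742 of chromosome 1 for VCAM1. Distances below run from a gene's own start site to the centre of a peak, with minus signs upstream. The sequences that the results turn on are the promoters of ICAM1 and VCAM1 (250 bases before the start site, RefSeq, GRCh38.p14) and the central 300 bases of the VCAM1 peak outside the promoter with the smallest adjusted p-value with TNF. They are chr19:10270870-10271119, chr1:100719492-100719741 and chr1:100721575-100721874, all written 5′ to 3′ on the plus strand. Capitals mark matches to the strings searched, which are described after the sequences.
ICAM1 promoter: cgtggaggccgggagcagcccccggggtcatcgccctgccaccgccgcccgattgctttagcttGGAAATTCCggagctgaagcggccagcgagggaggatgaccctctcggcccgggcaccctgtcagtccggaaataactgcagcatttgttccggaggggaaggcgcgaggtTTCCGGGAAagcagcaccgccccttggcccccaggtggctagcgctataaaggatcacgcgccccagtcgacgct
VCAM1 promoter: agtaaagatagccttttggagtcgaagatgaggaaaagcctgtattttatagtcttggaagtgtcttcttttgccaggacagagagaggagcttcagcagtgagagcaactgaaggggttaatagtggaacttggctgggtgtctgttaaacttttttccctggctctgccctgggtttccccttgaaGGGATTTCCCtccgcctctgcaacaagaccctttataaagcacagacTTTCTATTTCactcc
VCAM1 intronic peak: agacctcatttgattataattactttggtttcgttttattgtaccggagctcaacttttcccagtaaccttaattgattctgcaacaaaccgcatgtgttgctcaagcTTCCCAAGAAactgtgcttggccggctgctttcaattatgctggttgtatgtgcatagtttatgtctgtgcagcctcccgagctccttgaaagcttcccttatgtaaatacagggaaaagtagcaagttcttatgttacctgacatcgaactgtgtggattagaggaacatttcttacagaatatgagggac

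The strings were the NF-κB consensus, the interferon element ISRE (GAAA, any 2 bases, GAAA), the GAS element TTCNNNGAA, a STAT6 string (TTC, any 4 bases, GAA) and the AP-1 string TGANTCA, each read on both strands. A shorter pair of NF-κB half-sites, GGAANTTCC, was added after the promoters had been read and can overlap the longer string. In the ICAM1 promoter the capitals are a half-site pair followed by a GAS string. In the VCAM1 promoter they are an NF-κB string followed by an ISRE string next to the start site. The VCAM1 intronic peak held 1 STAT6 string.
The NF-κB string occurred in 11.3% of 35116 RefSeq promoters of 300 bases and in 13.0% of all peaks. Among members it occurred in 19 of 95 peaks (20.0%). Most of these were named for ICAM1, ICAM4 or ICAM5, and few of the 47 VCAM1 peaks held it. The pooled share therefore does not describe both loci. The half-site pair occurred in 0.965% of promoters and in 2 members. ISRE strings were present in 3.57% of promoters, GAS strings in 7.66%, STAT6 strings in 6.44% and AP-1 strings in 7.71%. In members they were present in 9.47%, 17.9%, 10.5% and 14.7% of peaks, beside 9.11%, 17.2%, 14.4% and 25.7% of all peaks. These are matches of letters and no measure of binding.

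Levels are given as coverage per Mb, which is the read coverage summed over a peak for each Mb of library total, after a composition factor. The library total is the coverage summed over all deposited peaks, not over all reads. Deep and shallow libraries are named by this total. In the median library, 1 per Mb stood for 5.55 reads. Total coverage ran from 149 to 823 Mb, with a median of 416 Mb, so that 3 reads came to 0.273 per Mb in the deepest library and 1.51 per Mb in the shallowest, which was IL-6 replicate 4. No libraries held identical values. Promoters of fibroblast markers ran up to 25.1 per Mb (COL1A1), with 5 of the 8 that had a promoter peak above the median gene (6.31 per Mb). PDGFRA, THY1 and DCN had no promoter peak in the table. All 7 endothelial markers, the cells in which ICAM1 and VCAM1 are best known, lay between 0.385 and 1.86 per Mb, below the median gene. Of 8 leukocyte markers 3 had a promoter peak, at most 1.59 per Mb, and of 7 epithelial markers only KRT8 had one, at 4.58 per Mb.

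Most members were peaks of low coverage. Their median over all libraries was 0.771 per Mb, beside 0.772 per Mb over all tested peaks, and 37 of 95 reached 1 per Mb (38.9%, beside 41.2% of all tested peaks). The highest member was an intronic peak of ICAM5 (+2.46 kb) at 9.1 per Mb, and the highest VCAM1 peak was the intronic peak printed above (+1.98 kb) at 7.85 per Mb. The ICAM1 maximum, 4.97 per Mb, was the peak over its start site. The median GC content was 51.3% for ICAM1 peaks, 52.7% for ICAM4, 62.2% for ICAM5 and 37.8% for VCAM1, beside 45.0% for all tested peaks.
The gene assigned to a peak is not always the gene it lies in. Of the 14 peaks named for ICAM4, 11 lay within the span of ICAM1 (chr19:10271093-10286615), and the long noncoding RNA LIMASI on the minus strand (chr19:10252268-10285108) covered the ICAM1 upstream region and most of ICAM1. ATAC-seq does not tell which of these overlapping genes a peak belongs to.

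Over the 10 cytokines, 12 of the 95 members were called (limma, adjusted p under 0.05) with at least 1 cytokine, 3 of them with more than 1, and 83 with none. These are shares of 12.6% and 3.16%, beside 13.3% and 4.56% of all tested peaks. The 16 calls were 7 with TNF, 4 with IL-1β, 2 each with IFNγ and OSM and 1 with TGF-β1. Changes are differences of log2(coverage per Mb + 0.5), which understates the change of low peaks. A rise in a bulk library can come from more cells with an open site or from a site open more often in each cell, and these cannot be told apart.

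**Figure D1:**
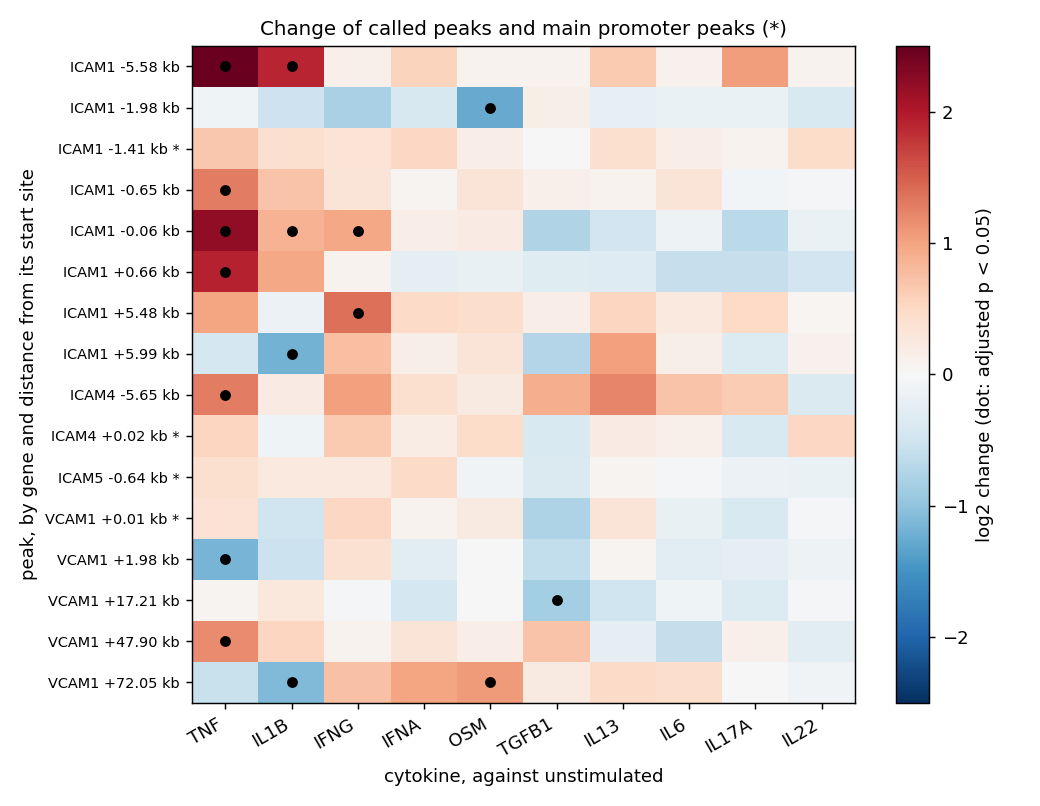
Log2 change of each member called with at least 1 cytokine, and of the main promoter peak of each gene (marked *), for the 10 cytokines against unstimulated cells. Color gives the log2 change and a dot an adjusted p under 0.05 (limma). TNF and IL1B share the ICAM1 peak at -5.58 kb (2.48 and 1.90). TNF, IL1B and IFNG share the ICAM1 start-site peak at -0.06 kb (2.22, 0.87 and 0.97). No dot falls on the main promoter peak of any of the genes.

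The comparison of TNF with unstimulated cells asked where this cytokine opens or closes chromatin. TNF raised 6 members (2.68% of all tested peaks rose) and lowered 1 (1.46% fell). Of the 6, 4 were ICAM1 peaks between -5.58 and 0.66 kb. The median change over the 95 members was 0.09, beside -0.024 over all tested peaks.
The peak over the ICAM1 start site (chr19:10270813-10271313, -0.06 kb), which the deposited table classes as exonic, held 2.35, 3.51, 5.09 and 2.81 per Mb in the unstimulated libraries. With TNF it held 16.2, 17.7, 18.3 and 16.8 per Mb. All TNF libraries lay well above all others. The means of 17.3 ± 0.955 and 3.44 ± 1.20 per Mb (SD, n = 4) differed 5.02-fold, and the log2 change was 2.22 ± 0.27 (SE, adjusted p = 2.99e-12).
The ICAM1 upstream peak (-5.58 kb), inside LIMASI, held 0.841, 0.877, 1.13 and 1.35 per Mb without stimulation. TNF libraries held 8.70, 7.03, 8.09 and 8.68 per Mb. Again the groups were far apart, from a low to a clearly open level. The ratio of means was 7.74, the largest among called members apart from a peak at the detection limit in OSM, and the log2 change 2.48 ± 0.32 (SE, adjusted p = 1.3e-10).
In the first part of the gene, the ICAM1 peak at 0.66 kb (chr19:10271529-10272029) held 1.37, 3.36, 0.618 and 1.88 per Mb unstimulated and 7.79, 6.80, 8.74 and 6.71 per Mb with TNF. The groups did not overlap, although 1 unstimulated library stood above its group. This is a log2 change of 1.93 ± 0.34 (SE, adjusted p = 3.65e-06). Upstream, the promoter-class peak at -0.65 kb (chr19:10270221-10270721) rose from 1.30 ± 0.328 to 3.88 ± 0.715 per Mb (SD, n = 4, log2 change 1.28, adjusted p = 0.00623). These 4 ICAM1 calls held in all 18 alternative settings tried for each, with adjusted p up to 1.55e-07 for the upstream peak, 7.15e-09 for the start-site peak, 0.000718 at 0.66 kb and 0.0402 at -0.65 kb.

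Counting called and uncalled peaks together, 14 of the 18 ICAM1 peaks had a positive log2 change with TNF and 13 of the 14 ICAM4 peaks, with a median of 0.44 for each gene beside -0.024 over all tested peaks. At an unadjusted p under 0.05 stood 6 ICAM1 and 4 ICAM4 peaks (13.3% of all tested peaks did). These are neighbouring peaks measured in the same libraries, and most ICAM4 peaks lie within ICAM1, so they are not independent observations. From 1.27 kb to 7.68 kb no ICAM1 peak passed the adjusted threshold, which does not show that they were unchanged. Among peaks named for ICAM4, 1 was called, chosen here after its values were seen. It lies at chr19:10281059-10281559, inside ICAM1 and 10.19 kb from the ICAM1 start site, and it held 1.10, 1.22, 1.40 and 1.30 per Mb with TNF. Each unstimulated library was at or under 3 reads there, so TNF was at least 2.29-fold higher (adjusted p = 0.0357). That call was lost without unstimulated replicate 1, 2 or 4 and without any 1 of the 4 TNF libraries (adjusted p from 0.0598 to 0.173), and with a pseudocount of 0.1 (0.0708). No ICAM5 peak was called with TNF (limma, 0 of 16, and 0 at an unadjusted p under 0.05).

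**Figure D2:**
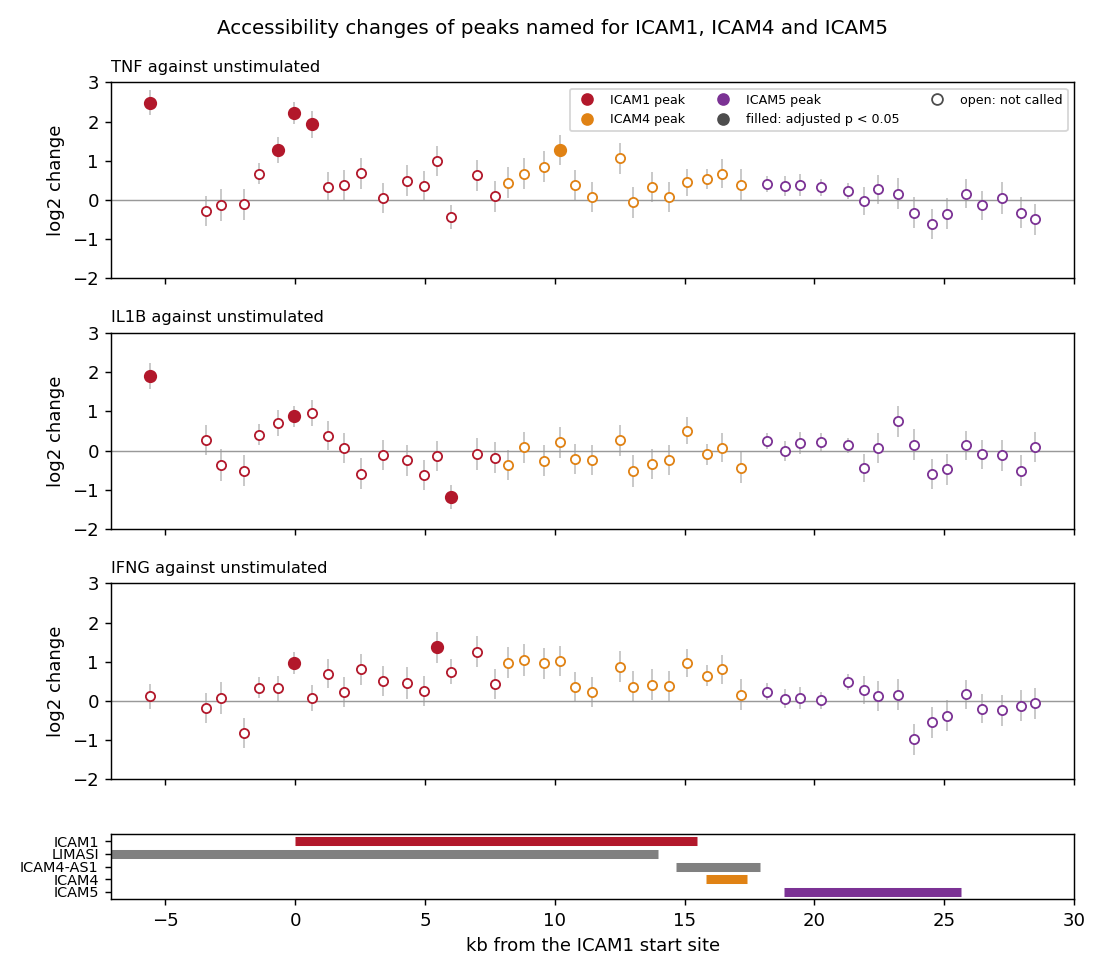
Log2 change of the 48 peaks named for ICAM1, ICAM4 and ICAM5 against kb from the ICAM1 start site, with TNF, IL1B and IFNG. Bars are SE, filled points have an adjusted p under 0.05, and the lowest panel gives gene spans. The 4 called ICAM1 points with TNF lie between -5.58 and 0.66 kb, with changes of 1.28 to 2.48. A called ICAM4 point with TNF lies at 10.19 kb, with a change of 1.28.

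At VCAM1, TNF raised 1 peak and lowered 1. The only VCAM1 promoter-class peak (chr1:100719505-100720005, 0.01 kb, centred in the VCAM1 UTR) held 3.06, 4.58, 3.92 and 1.54 per Mb unstimulated and 3.79, 4.65, 4.17 and 3.94 per Mb with TNF. The groups overlapped, with 1 low library among the unstimulated ones. The log2 change was 0.37 ± 0.28 (SE, adjusted p = 0.653), and it stayed uncalled in all 18 alternative settings. The difference in response between the 2 genes was not tested.
The VCAM1 intronic peak (chr1:100721474-100721974, 1.98 kb) fell with TNF. It held 7.48, 8.76, 9.96 and 9.95 per Mb unstimulated and 4.48, 3.31, 4.10 and 3.13 per Mb with TNF. All 4 TNF libraries were below all unstimulated ones. Means of 9.04 ± 1.18 and 3.75 ± 0.641 per Mb (SD, n = 4) differed 2.41-fold, and the log2 change of -1.17 ± 0.21 (SE, adjusted p = 8.41e-06) held in all 18 alternative settings.
One VCAM1 peak rose with TNF, an intergenic peak 47.9 kb downstream (chr1:100767394-100767894), also chosen after its values were seen. It held 1.22, 2.38, 3.66 and 0.701 per Mb unstimulated and 4.21, 3.14, 7.25 and 4.51 per Mb with TNF, and the groups overlapped. The log2 change was 1.19 ± 0.33 (SE, adjusted p = 0.0136). The call was lost without unstimulated replicate 1 or 4 or TNF replicate 3 (adjusted p from 0.0752 to 0.182) and with a pseudocount of 0.1 (0.0848).

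IL-1β, also known for NF-κB activation, raised 2 members (1.44% of all tested peaks rose) and lowered 2 (1.75% fell). The ICAM1 upstream peak held 5.98, 6.07, 6.44 and 3.14 per Mb, all above the unstimulated libraries. The mean rose 5.15-fold, with a log2 change of 1.90 ± 0.32 (SE, adjusted p = 2.95e-06), and the call held in all 18 alternative settings. The ICAM1 start-site peak held 7.92, 5.88, 8.86 and 4.20 per Mb, overlapping the unstimulated range. Its log2 change was 0.87 ± 0.27 (SE, adjusted p = 0.0416). That call was lost without unstimulated replicate 1, 2 or 4 or IL-1β replicate 1, 2 or 3 (adjusted p from 0.0633 to 0.226), with GC bin offsets (0.074) and with a pseudocount of 0.1 (0.0821).
Farther inside ICAM1, the peak at 5.99 kb (chr19:10276863-10277363) fell with IL-1β. It held 2.04, 3.80, 2.18 and 2.67 per Mb unstimulated and 0.379, 0.382, 1.46 and 1.74 per Mb with IL-1β. The groups did not overlap, though the upper IL-1β library came close to the lowest unstimulated one. With a log2 change of -1.19 ± 0.31 (SE, adjusted p = 0.00762), the call was lost without unstimulated replicate 2 or IL-1β replicate 1 or 2 (adjusted p from 0.0741 to 0.0907).
The VCAM1 downstream peak (chr1:100791541-100792041, 72.05 kb, intergenic) also fell with IL-1β. Unstimulated libraries held 2.14, 2.53, 2.18 and 1.67 per Mb, and IL-1β libraries 0.768, 0.910, 0.793 and 0.433 per Mb. No IL-1β library reached the unstimulated range. The log2 change was -1.11 ± 0.30 (SE, adjusted p = 0.0123), lost without unstimulated replicate 2 or IL-1β replicate 4 (adjusted p = 0.0591 and 0.08) and with a pseudocount of 2 (0.0511).
The VCAM1 promoter peak held 2.31, 2.29, 1.77 and 1.78 per Mb with IL-1β, within the range of the unstimulated libraries (log2 change -0.50 ± 0.28, SE, adjusted p = 0.494).

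**Figure D3:**
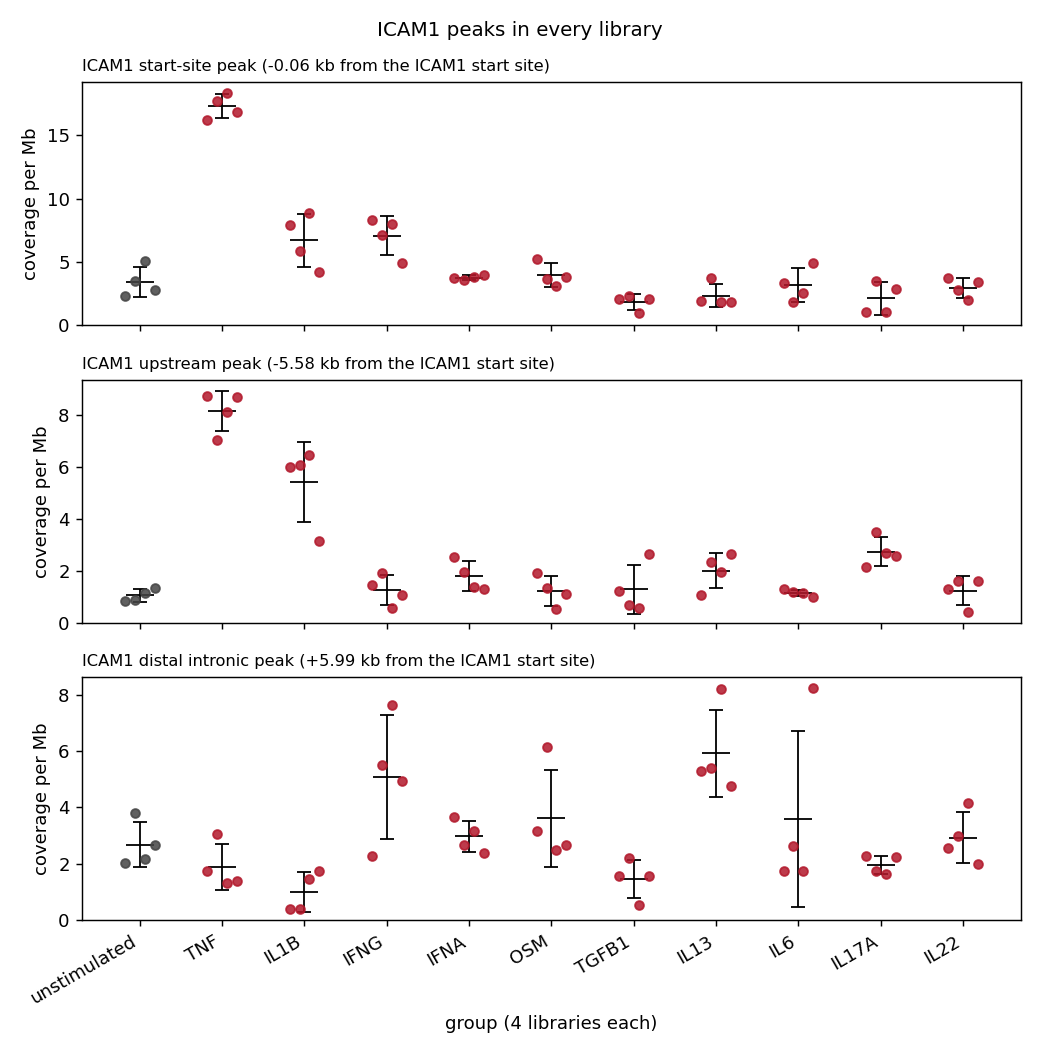
Coverage per Mb of 3 ICAM1 peaks in each of the 44 libraries, by group, with mean and SD (bars, n = 4). At the start-site peak the TNF libraries sit between 16.2 and 18.3 per Mb, above all others, and at the upstream peak TNF and IL1B stand above the unstimulated libraries.

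IFNγ is a known inducer of ICAM1. It raised 2 members, both of ICAM1 (1.33% of all tested peaks rose), and lowered 0 (limma). The start-site peak held 8.29, 7.14, 7.96 and 4.92 per Mb, of which 3 lay above the unstimulated range. Its mean of 7.08 ± 1.52 per Mb (SD, n = 4) was 2.06-fold that of unstimulated cells, with a log2 change of 0.97 ± 0.27 (SE, adjusted p = 0.0274). That call was lost without unstimulated replicate 1, 2 or 4 or IFNγ replicate 1, 2 or 3 (adjusted p from 0.0527 to 0.183), with GC bin offsets (0.0622) and with a pseudocount of 0.1 (0.0735).
The ICAM1 peak at 5.48 kb (chr19:10276350-10276850) held 0.361, 0.349, 0.270 and 0.941 per Mb unstimulated and 0.665, 2.08, 2.48 and 3.50 per Mb with IFNγ. One library of each group fell in the range of the other. The log2 change was 1.37 ± 0.39 (SE, adjusted p = 0.0382), lost without unstimulated replicate 1, 2 or 3 or IFNγ replicate 2, 3 or 4 (adjusted p from 0.104 to 0.268) and with a pseudocount of 0.1 (0.185). With any 1 library left out, IFNγ calls among members numbered 0 or 1.
Along ICAM1 and the ICAM4 peaks most differences with IFNγ were positive, few of them past the test. All 14 ICAM4 peaks had a positive log2 change, with a median of 0.73, and so did 16 of 18 ICAM1 peaks, with a median of 0.38. Over all tested peaks the median was -0.014. For ICAM4, 8 of the 14 had an unadjusted p under 0.05 (9.47% of all tested peaks did) and 0 passed the adjusted threshold (limma). Neighbouring peaks share the same libraries, so these are not independent observations. ICAM5, next in line, had a median of 0.04 and VCAM1 of 0.01.
The VCAM1 promoter peak was at 3.87, 6.37, 4.78 and 3.92 per Mb with IFNγ, the highest mean of the 11 groups (4.73 per Mb), but it overlapped the unstimulated libraries (log2 change 0.52 ± 0.28, SE, adjusted p = 0.576).

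OSM, a cytokine of the IL-6 family, raised 1 member (4.13% of all tested peaks rose) and lowered 1 (1.05% fell). The median of all peaks moved by -0.104 with OSM. The VCAM1 downstream peak at 72.05 kb, which fell with IL-1β, held 4.58, 7.21, 4.24 and 4.21 per Mb with OSM. All OSM libraries were above the unstimulated ones. The log2 change was 1.06 ± 0.30 (SE, adjusted p = 0.0151), lost without unstimulated replicate 4 or OSM replicate 2 (adjusted p = 0.0675 and 0.116) and with libraries scaled by their totals, by median-of-ratios factors or by loess offsets (0.085 to 0.109). OSM was not compared directly with IL-1β.
The promoter-class ICAM1 peak at -1.98 kb (chr19:10268889-10269389) held 1.23, 0.933, 0.227 and 2.09 per Mb unstimulated. With OSM it held 0.139, 0.237, 0 and 0.105 per Mb, each at or under 3 reads, which makes the OSM mean at least 2.37-fold lower. The low unstimulated library overlapped the OSM range. The adjusted p of 0.0317 was lost without unstimulated replicate 1, 2 or 4 or OSM replicate 1, 3 or 4 (adjusted p from 0.0589 to 0.196), with loess offsets (0.246) and with GC bin offsets (0.0613).
TGF-β1, known for driving matrix production in fibroblasts, raised no member and lowered 1 (2.87% of all tested peaks fell). This was the intronic VCAM1 peak at 17.21 kb (chr1:100736701-100737201). It held 6.41, 6.80, 5.17 and 8.56 per Mb unstimulated and 5.30, 2.80, 2.76 and 3.49 per Mb with TGF-β1, with 1 library of overlap. It changed by a log2 value of -0.85 ± 0.23 (SE, adjusted p = 0.0121), lost without unstimulated replicate 4 or TGF-β1 replicate 2 or 3 (adjusted p from 0.0683 to 0.0788), with median-of-ratios factors (0.0595) and with loess offsets (0.0944).
The VCAM1 promoter peak was lowest with TGF-β1, at 0.665, 2.53, 2.39 and 1.37 per Mb (log2 change -0.78 ± 0.28, SE, adjusted p = 0.109). The ICAM1 start-site peak was also lowest there, at 1.84 ± 0.602 per Mb (SD, n = 4, adjusted p = 0.0986). Neither passed the threshold.

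**Figure D4:**
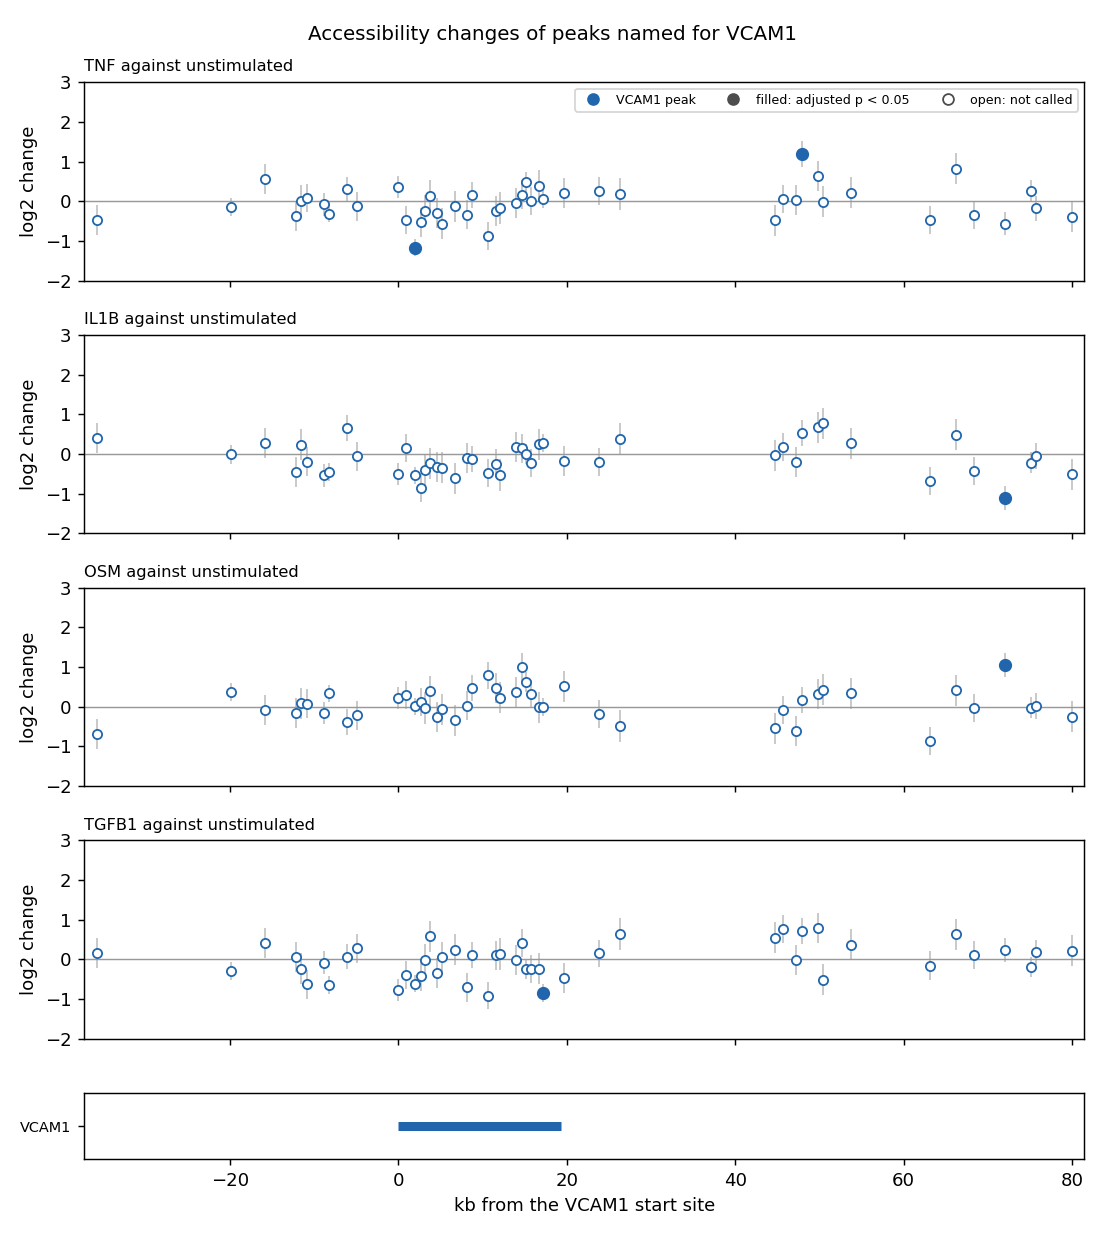
Log2 change of the 47 VCAM1 peaks against kb from the VCAM1 start site, with TNF, IL1B, OSM and TGFB1. Bars are SE, filled points have an adjusted p under 0.05, and the lowest panel gives the gene span. The called points are scattered over the locus, in both directions, and none is at the start site.

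With the remaining cytokines limma called 0 members each. For IFNα, 0.651% of all tested peaks were called, and 7 of 95 members had an unadjusted p under 0.05 (8.97% of all tested peaks did). For IL-13 the share called was 1.4%, and 8 members had an unadjusted p under 0.05 (11.1% of all). For IL-6 it was 0.0646%, with 6 members (8.52% of all), and leaving out the shallow replicate 4 also gave 0 calls. For IL-17A it was 0.0305%, with 3 members (6.29% of all), and for IL-22 0.084%, with 5 members (7.59% of all).
At the ICAM1 upstream peak, IL-17A libraries held 2.15, 3.49, 2.69 and 2.57 per Mb, all above the unstimulated range of 0.841 to 1.35 per Mb. The log2 change of 1.05 ± 0.32 (SE) had an adjusted p of 0.402. At the VCAM1 downstream peak, IFNα libraries held 6.63, 4.10, 4.06 and 4.35 per Mb, also above the unstimulated ones, with a log2 change of 0.99 ± 0.30 (SE, adjusted p = 0.0984). At the ICAM1 peak of 5.99 kb, IL-13 libraries held 5.31, 5.39, 8.21 and 4.77 per Mb. All lay above the unstimulated range of 2.04 to 3.80 per Mb, but the peak was not called with IL-13. All of these peaks were chosen here after their values were seen.

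Direct comparisons between cytokines tested whether the responses differed. The dose of IL-1β was the lower one (0.1 against 10 ng/ml per the labels), so cytokine and dose cannot be told apart here. Against TNF, IL-1β lowered 1 member (1.1% of all tested peaks were lower) and raised 0 (limma). It was the ICAM1 start-site peak, at 6.71 ± 2.09 per Mb with IL-1β and 17.3 ± 0.955 per Mb with TNF (SD, n = 4), a log2 difference of -1.35 ± 0.27 (SE, adjusted p = 0.000305). At the ICAM1 upstream peak the difference was -0.59 ± 0.32 (SE, adjusted p = 0.577), with means of 5.41 ± 1.53 and 8.13 ± 0.779 per Mb.
At the same dose of 10 ng/ml, IFNγ was above TNF at 3 members (2.85% of all tested peaks were higher) and below it at 4 (3.2% were lower). The ICAM1 peaks at -5.58, -0.06 and 0.66 kb were lower with IFNγ, by log2 differences of -2.36 ± 0.32, -1.25 ± 0.27 and -1.84 ± 0.34 (SE, adjusted p at most 0.000222). These 3 calls held in all alternative settings.
At VCAM1, 2 of 3 calls had the higher level with IFNγ, although against unstimulated cells IFNγ called 0 of 47 VCAM1 peaks (limma). The intronic peak at 1.98 kb held 13.8, 9.69, 10.5 and 14.2 per Mb with IFNγ, all above the TNF libraries, for a log2 difference of 1.55 ± 0.21 (SE, adjusted p = 4.38e-10). The downstream peak at 72.05 kb was also higher with IFNγ, by 1.31 ± 0.30 (SE, adjusted p = 0.000715), and the ICAM1 peak at 5.99 kb by 1.19 ± 0.31 (SE, adjusted p = 0.00443). The VCAM1 peak at 47.9 kb was lower with IFNγ, by a log2 difference of -1.10 ± 0.33 (SE, adjusted p = 0.0206). Without IFNγ replicate 3 the last 2 calls were lost (adjusted p = 0.0712 for the ICAM1 peak and 0.218 for the VCAM1 peak), and without TNF replicate 3 or with a pseudocount of 0.1 the VCAM1 one (adjusted p = 0.159 and 0.117).
Between IFNα and IFNγ limma called 0 members (1.03% of all tested peaks were called), and 11 of 95 had an unadjusted p under 0.05 (8.86% of all). These comparisons share TNF or IFNγ libraries with those against unstimulated cells.

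**Figure D5:**
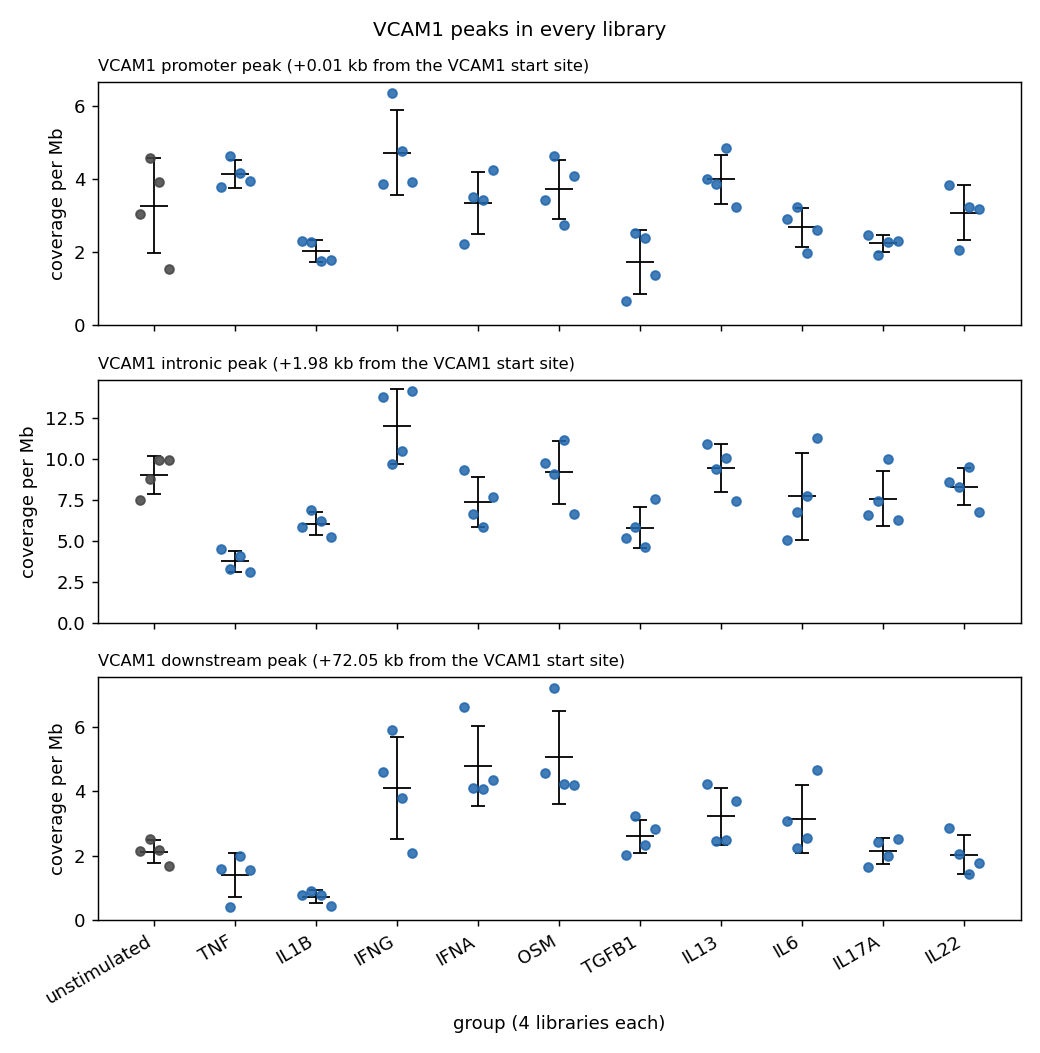
Coverage per Mb of 3 VCAM1 peaks in each of the 44 libraries, by group, with mean and SD (bars, n = 4). At the intronic peak the 4 TNF libraries (3.13 to 4.48 per Mb) are below the unstimulated ones, while the promoter peak overlaps between unstimulated cells and every cytokine.

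Ordered by mean level, the ICAM1 start-site peak ran from TNF (17.3 per Mb) to IFNγ (7.08), IL-1β (6.71), OSM (3.97), IFNα (3.77), unstimulated (3.44), IL-6 (3.18), IL-22 (2.98), IL-13 (2.35), IL-17A (2.12) and TGF-β1 (1.84 per Mb). Only TNF was clear of its neighbour in this order, and the libraries of all later neighbours overlapped.
The ICAM1 promoter-class peak with the highest mean (chr19:10269459-10269959, -1.41 kb) differed much less between groups. It ran from TNF (5.08 per Mb) through IFNα (4.53), IL-22 (4.39), IL-13 (4.33), IL-1β (4.13), IFNγ (3.98), IL-6 (3.47), OSM (3.45), IL-17A (3.33) and unstimulated (3.09) to TGF-β1 (2.99 per Mb), with every pair of neighbours overlapping. With TNF its log2 change was 0.67 ± 0.27 (SE, adjusted p = 0.169).
The VCAM1 promoter peak ran from IFNγ (4.73 per Mb) through TNF (4.14), IL-13 (4.00), OSM (3.73), IFNα (3.35), unstimulated (3.28), IL-22 (3.09), IL-6 (2.68), IL-17A (2.25) and IL-1β (2.04) to TGF-β1 (1.74 per Mb). Every pair of neighbours overlapped here too.
The ICAM4 promoter peak (chr19:10286728-10287228, 0.02 kb) ranged from 2.48 per Mb with IL-17A to 5.70 per Mb with IFNγ, through TGF-β1 (2.60), IL-1β (3.20), unstimulated (3.43), IL-6 (3.84), IFNα (4.02), IL-13 (4.05), OSM (4.88), IL-22 (5.17) and TNF (5.28). That of ICAM5 (chr19:10289060-10289560, -0.64 kb) ranged from 5.59 per Mb with TGF-β1 to 10.4 per Mb with IFNα, through IL-17A (6.64), IL-22 (6.90), OSM (6.91), IL-6 (7.25), unstimulated (7.59), IL-13 (7.78), IFNγ (8.79), IL-1β (8.94) and TNF (9.92). Neighbouring groups overlapped in both orders, and neither peak was called with any cytokine. Their smallest adjusted p-values were 0.29 for ICAM4 with IFNγ and 0.398 for ICAM5 with TNF.

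Other genes of leukocyte adhesion were read only at their promoter-class peak with the highest mean. By this rule ICAM1 itself was not called with TNF (limma, log2 change 0.67, adjusted p = 0.169). Its start-site peak, which rose, is classed as exonic, and such peaks of the other genes were not read. SELE, ICAM3, CD99, PVR, F11R, JAM3 and THY1 had no promoter-class peak. Of 30 further adhesion genes (selectins, junctional and other immunoglobulin-type proteins, CD44, CD47 and the like) 23 had a promoter-class peak. With TNF none was raised and 1 was lowered (1.46% of all tested peaks fell), with IL-1β none was raised and 1 was lowered (1.75% fell), and with IFNγ none was called, although 2 of 23 had an unadjusted p under 0.05 (limma, 9.47% of all tested peaks did). The gene lowered was CD9, a tetraspanin of adhesion platforms, from 7.57 ± 2.04 per Mb unstimulated to 3.97 ± 1.05 with TNF (adjusted p = 0.0163) and 3.97 ± 0.156 with IL-1β (adjusted p = 0.0269; SD, n = 4). TGF-β1 lowered CD9 and ALCAM, the latter named after its values were seen (log2 changes -1.18 and -0.36), where 2.87% of all tested peaks fell. OSM called none, with 8 of 23 at an unadjusted p under 0.05 (18.4% of all tested peaks). The median change of the list was lowest with TGF-β1 (-0.32, beside 0.046 over all tested peaks) and highest with OSM (0.20, beside -0.104).
Of 9 integrin genes of leukocytes, 8 had a promoter peak. Most encode chains of receptors for ICAM1 or VCAM1. TNF lowered 1 of the 8 (1.46% of all tested peaks fell). It was ITGAE, the αE chain, whose known ligand is E-cadherin and not an ICAM or VCAM1, from 9.00 ± 1.96 to 5.31 ± 1.39 per Mb (SD, n = 4, adjusted p = 0.0213). IFNγ raised 1 (1.33% of all tested peaks rose), ITGB7, the β7 chain, from 0.736 ± 0.346 to 3.72 ± 2.07 per Mb (SD, n = 4, adjusted p = 0.00298). Its unstimulated level was close to the floor of 3 reads, which came to 0.549 per Mb in that group. IL-1β called none of the 8 (limma), with 2 at an unadjusted p under 0.05 (12.2% of all tested peaks). The calls in both gene lists were not rerun under the alternative settings.

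Across the 11 group means, the promoter peaks of other genes most like a reference were ranked by Pearson's r of the log2 value, over 4467 candidates. These values compare peaks measured in the same libraries, and the highest of so many candidates is high by selection. Candidates were also filtered on the range of their group means, and the references were not. The ICAM1 promoter peak meant here is the one at -1.41 kb, not the start-site peak. Its group means ran only from 2.99 to 5.08 per Mb, with neighbouring groups overlapping, so its pattern may be largely noise. For this ICAM1 promoter peak the most similar peaks belonged to KCCAT198 (r = 0.896), ERN1 (0.894), C2CD2 (0.856), TNIP1 (0.849) and BIRC2 (0.843). The VCAM1 promoter peak ran from 1.74 to 4.73 per Mb, also with neighbouring groups overlapping, so its pattern may be largely noise too. Its most similar peaks were those of KU-MEL-3 (r = 0.938), MMP25-AS1 (0.937), MRPL30 (0.919), EPB41L4A (0.909) and BROX (0.901). For the ICAM1 start-site peak, a reference added after the data had been seen, they were IL32 (r = 0.891), TICAM1 (0.883), GYPC (0.879), CCNL1 (0.878) and USP49 (0.876).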

How the data were processed

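The authors aligned paired-end ATAC-seq reads to hg38 with the ENCODE pipeline and called peaks with MACS2. The values deposited are a signal, namely unscaled sums of read coverage per peak and library, and how the deposited peak set was chosen is not given in the sources used here. Columns were matched to samples by the library number in the labels (0 unmatched). Members and gene lists were chosen with earlier results of these data known.

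Coverage was divided by the library total over all deposited peaks in Mb and by a trimmed mean factor. The factor trimmed 30% of log ratios and 5% of means from each end. Then 0.5 was added and log2 taken. Peaks with a log2 mean of -3 or below (209) were left out. Because the values are coverage and not counts, limma 3.58.1 (R 4.3.3, eBayes with a trend) was fitted to all 44 libraries, with group as the only term and 13 contrasts. Adjusted p-values are Benjamini-Hochberg values over all 407174 tested peaks, called under 0.05. The scripts were tested on simulated data. A read was taken as 75 bases and the floor as 3 reads, which covers counting error only. Total coverage in peaks, 149 to 823 Mb per library, sets the precision. Deposited intervals were read as 500 bases after the start. They may be off by 1 base. Per-group values are mean ± SD after scaling, and SE is that of the fit.

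Peaks were named by a rule: the promoter-class peak of each gene with the highest mean, and per cytokine up to 4 raised and 4 lowered members with at least 1 per Mb in the higher group. Likeness used tested promoter peaks of other genes with a mean of at least 1 per Mb and a range of group means of at least 1 log2 unit. GENCODE v44 gave start sites and RefSeq the promoter sequences. The sequence of 1 ICAM1 peak is not reported here. Alternatives changed the scaling, pseudocount, filter, libraries in the fit and the replicate term, and left out each library of a comparison in turn. Replicate numbers are shared by all groups. The correlation of deviations between same-numbered libraries was small, from -0.107 to 0.0924. Its median was 0.00438, beside -0.00227 between libraries of other numbers. Tables and figures used pandas 2.3.3, numpy 2.4.6 and matplotlib 3.10.9 in Python 3.11.15.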

Additional observations from a re-analysis of the deposited data

Results flagged for a closer look

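A library was singled out where its gap to the nearest of the other 3 of its group passed Dixon's 95% critical value for 4 samples, as a share of the group's range. Of 176 groups checked over 16 named peaks, 10 held such a library, and chance gives about 1 in 20. Several rest on few reads.

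At the ICAM1 upstream peak (-5.58 kb), IL-1β replicate 4 held 3.14 per Mb, below the 5.98 to 6.44 of the others. At the ICAM1 start-site peak, IL-13 replicate 2 held 3.74 per Mb, with the others between 1.86 and 1.92. At -1.98 kb from the ICAM1 start site, TNF replicate 2 held 1.97 per Mb, with the others at 0.531 to 0.659. At 5.48 kb, unstimulated replicate 4 held 0.941 per Mb (6 reads), with the others at 0.270 to 0.361. At 5.99 kb, IL-6 replicate 4, the shallowest library, held 8.23 per Mb (15 reads), with the others at 1.74 to 2.63.

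At the ICAM4 peak inside ICAM1 (10.19 kb), IL-13 replicate 2 held 3.06 per Mb (9 reads), with the others at 0.698 to 1.07, and IL-22 replicate 2 held 0.317 per Mb (2 reads) where the others held 0. At the VCAM1 intronic peak of 17.21 kb, IL-22 replicate 1 held 6.05 per Mb, just under the 6.57 to 6.65 of the others. At the VCAM1 downstream peak (72.05 kb), IFNα replicate 1 held 6.63 per Mb (others 4.06 to 4.35) and OSM replicate 2 held 7.21 per Mb (others 4.21 to 4.58).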

How the results depend on the processing

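For 30 named values, 537 alternative values were computed. Of these, 474 kept their direction and their side of the threshold, 63 kept the direction but were no longer called, and none reversed. The counts of called members with TNF (7), IL-1β (4) and IFNγ against TNF (7) stayed within 1.5 times their value under every alternative that kept all libraries. With IFNγ (2) the count was 1 with GC bin offsets, 0 with a pseudocount of 0.1 and 1 with a filter at 1 per Mb. With OSM (2) it was 1 with library totals, 1 with median-of-ratios factors, 0 with loess offsets and 4 with only the 2 groups compared. With TGF-β1 (1) it was 0 with median-of-ratios factors, 0 with loess offsets, 3 with GC bin offsets and 4 with a filter at 1 per Mb. With IFNα (0) it was 1 with a pseudocount of 2 and 1 with a filter at 1 per Mb, and with IL-13 (0) it was 1 with a pseudocount of 2 and 1 with only the 2 groups compared. For IL-1β against TNF (1) it was 3 with loess offsets, 2 with a pseudocount of 2, 2 with a filter at 1 per Mb and 3 with only the 2 groups compared. For IFNα against IFNγ (0) it was 1 with median-of-ratios factors, loess offsets, GC bin offsets, a pseudocount of 2 or a filter at 1 per Mb, and 2 with only the 2 groups compared. The cause was not tested.

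With 1 library left out, the count ran from 2 to 4 for IL-1β, from 0 to 1 for IFNγ, IFNα and IL-13, from 0 to 2 for OSM and TGF-β1, from 1 to 2 for IL-1β against TNF, from 0 to 1 for IFNα against IFNγ, and from 5 to 7 for TNF. With the replicate block the counts were 7 with TNF, 4 with IL-1β, 2 with OSM, 2 with IFNγ, 1 with TGF-β1, 7 for IFNγ against TNF, 1 for IL-1β against TNF and 0 elsewhere, as without it. Of 44 libraries, 16 correlated best with one of their own number, and the count to be had by chance was not computed. The median of all peaks moved with the scaling for OSM (-0.104, or -0.211 with library totals) and TGF-β1 (0.124 with library totals). Of the 5 promoter peaks most like the ICAM1 promoter peak, 2 were shared with a ranking by Spearman's rho and 3 without the unstimulated group. For VCAM1 these were 4 and 5, and for the ICAM1 start-site peak 0 and 4.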
